A study of Mus musculus with 2 samples.

Results

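The transcripts of cytotoxic granules were followed in RNA pools of cells sorted as regulatory T cells (Tregs), from Bcl11b-deficient and wild-type mice. The set held 9 genes: the granzymes Gzma, Gzmb, Gzmc, Gzmk and Gzmm, the pore-forming protein perforin (Prf1), the granule membrane protein Nkg7, the granule proteoglycan serglycin (Srgn) and the death ligand Fasl. They were taken by name, through every gene probe that the array files label with one of these symbols. The rule uses no values, but it was set with earlier results of these data known. This gave 11 of 41174 distinct probes, 20 of 43379 gene spots, and 9 of 27975 named genes. All 9 genes, and all 11 probes, were well above background in each of the 4 RNA pools.

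Each Cre system was represented by 1 two-colour Agilent array, on which a deficient pool was hybridised against a wild-type pool, all from C57BL/6 mice. One array held sorted Foxp3-Gfp+ Tregs, which the design text ties to Bcl11bF/F/Cd4Cre/Foxp3-GFP+ mice, and is called the Cd4Cre array. The other array is labelled only as sorted Tregs. It was matched to the remaining line of the design text, Bcl11bF/F/Foxp3Cre mice, and is called the Foxp3Cre array, so the Cre of both arrays is inferred. Cd4Cre is active in developing T cells before Foxp3 is made, so all T cells of those mice lose the floxed gene, whereas Foxp3Cre is active in cells that already make Foxp3. Both wild-type pools came from 3 mice. The labels give neither the number of mice in the deficient pools nor any age, nor do they name alleles of the wild-type mice beyond the Foxp3-GFP reporter of the first array. Wild-type RNA was always in Cy3 and deficient RNA in Cy5, so a dye effect and the genotype cannot be told apart. In these bulk samples, a change in the number of cells that carry a transcript and a change in the amount per cell also cannot be told apart.

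Cytotoxic lymphocytes, mainly natural killer (NK) cells and CD8 T cells, store granzymes and perforin in secretory lysosomes, bound to the glycosaminoglycan chains of serglycin. On release, perforin opens the target membrane and the granzymes, which are serine proteases, cleave substrates inside the target cell, while Fas ligand kills through the receptor Fas on its own route. Activated Tregs can also make granzymes, granzyme B above all, and granzyme-dependent killing is one of the ways in which they are known to restrain other cells.

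The granzymes are a family of related genes, so the 60-base probes are shown first to let the reader see how far the array could separate them. Capitals mark the longest run that a probe shares with the probe of another granzyme. The first 4 belong to granzymes of the set, and Gzmf, Gzmd and Gzme are neighbours of Gzmb.
Gzma: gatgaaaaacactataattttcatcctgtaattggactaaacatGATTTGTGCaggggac
Gzmk: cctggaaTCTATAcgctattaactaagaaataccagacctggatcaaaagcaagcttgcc
Gzmc: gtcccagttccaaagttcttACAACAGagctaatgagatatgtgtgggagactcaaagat
Gzmm: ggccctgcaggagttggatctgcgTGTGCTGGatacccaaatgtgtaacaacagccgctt
Gzmf: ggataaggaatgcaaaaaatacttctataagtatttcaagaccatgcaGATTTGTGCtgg
Gzmd: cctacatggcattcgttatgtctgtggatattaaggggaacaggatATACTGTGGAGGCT
Gzme: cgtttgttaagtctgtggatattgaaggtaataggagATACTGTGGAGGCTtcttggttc
Gzma and Gzmf shared a run of 9 bases, Gzmm and Gzmf 8, Gzmc and Gzmm 7, and Gzmk no more than 6 with any other granzyme probe. The probes of Gzmd and Gzme were the exception, with a shared run of 14 bases and 43 of 51 aligned bases alike (84.3%), so these paralogs could not be separated well. Against the probes of all other genes on the array, the longest run shared by a probe of the set was 17 bases for Gzma and 13 to 15 bases for the rest. These are comparisons between probes, and matches to whole transcripts were not analysed here.

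Upstream sequence of Gzmb, Gzma and Prf1 is shown because these genes gave different values in the deficient pools, as described below. Each line is the 250 bases before the RefSeq transcript start on the gene's strand (GRCm38.p6), and capitals mark TGTGGT or its reverse complement, the core recognised by Runx factors, which include Runx3 of CD8 T cells. The regions are chr14:56262335-56262584 (minus strand) for Gzmb, chr13:113100982-113101231 (minus strand) for Gzma and chr10:61297586-61297835 (plus strand) for Prf1.
Gzmb: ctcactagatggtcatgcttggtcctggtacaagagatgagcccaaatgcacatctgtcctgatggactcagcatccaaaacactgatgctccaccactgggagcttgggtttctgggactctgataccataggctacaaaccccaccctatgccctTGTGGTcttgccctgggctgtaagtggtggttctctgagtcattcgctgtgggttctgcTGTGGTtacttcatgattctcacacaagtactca
Gzma: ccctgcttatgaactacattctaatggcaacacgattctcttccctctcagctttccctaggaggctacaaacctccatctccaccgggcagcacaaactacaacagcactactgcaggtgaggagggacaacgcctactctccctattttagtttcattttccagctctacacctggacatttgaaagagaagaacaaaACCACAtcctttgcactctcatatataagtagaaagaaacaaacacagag
Prf1: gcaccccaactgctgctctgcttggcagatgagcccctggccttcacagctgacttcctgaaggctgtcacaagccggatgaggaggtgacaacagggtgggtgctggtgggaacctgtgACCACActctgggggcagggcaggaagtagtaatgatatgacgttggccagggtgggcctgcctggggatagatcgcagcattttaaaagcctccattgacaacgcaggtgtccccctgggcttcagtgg
Gzmb held 2 matches, and Gzma and Prf1 held 1 each. The 9 genes have 11 RefSeq promoters. At least 1 match stood in 7 of these, from 7 genes (all but Gzmk and Fasl), whereas 14.05% of 32851 promoters of the same length held it on either strand. Of 3 further motifs searched on both strands, the AP-1 site TGANTCA occurred in the promoter of Gzmb alone (6.75% of all promoters), the cyclic AMP response element TGACGTCA in that of Gzmc alone (1.55%), and the T-box site AGGTGTGA in that of Nkg7 alone (1.12%). The Runx motif stood alike before Gzma, which was higher in the deficient pools, and before Prf1, which was lower. A match describes letters in the window and is not evidence of binding.

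The arrays were of similar quality, with 24439 wild-type and 21773 deficient spots clear of background on the Cd4Cre array, and 23446 and 20689 on the Foxp3Cre array. No spot was saturated, and no spot of the 9 genes was marked as an outlier. The median SD between repeated spots of 1 probe was 0.056 and 0.071 on the log2 scale. Bcl11b itself read -2.46 and -1.82 (log2, deficient over wild type). Which exons were floxed is not given, so this probe may or may not lie in the removed segment. The Treg markers Foxp3, Il2ra, Ctla4, Ikzf2, Tnfrsf18, Cd4 and Cd3e were well above background in every pool. On the Cd4Cre array, all 7 were below 0, 5 of them by 2-fold or more (10.6% of all detected genes), with Foxp3 at -3.57. On the Foxp3Cre array 3 were above 0 and 4 below, with Foxp3 at -0.20. Ctla4 alone passed 2-fold there, upwards at 1.22 (2.94% of all detected genes). The log2 signal of Foxp3 was 12.50 in the Cd4Cre wild-type pool and 10.02 in the Foxp3Cre wild-type pool.

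The granzymes and Nkg7 were higher in the RNA of the Cd4Cre deficient pool than in that of its wild-type pool, and perforin was not. Of the 9 genes, 6 were at least 2-fold higher (Gzma, Nkg7, Gzmc, Gzmb, Gzmk and Gzmm), against 11.4% of the 15873 detected genes, and none was at least 2-fold lower, against 10.6%. After Foxp3Cre deletion the ratio was smaller in size for 7 of the 9 genes, all but Srgn and Prf1. For Fasl and Prf1 the difference between the arrays was below its combined software error. With the scanner software's ratio their order turned, with Fasl at 0.66 (Cd4Cre) and 0.73 (Foxp3Cre) and Prf1 at -0.58 and -0.52. On the Foxp3Cre array 1 of 9 was at least 2-fold higher (Srgn), against 2.94% of 15189 detected genes. None was at least 2-fold lower, against 11.5%. Gzmb at 0.996 and Gzmk at 0.998 lay just under the 2-fold threshold there. The median log2 ratio of the 9 genes was 2.15 with Cd4Cre and 0.61 with Foxp3Cre, where the medians of all detected genes were -0.050 and -0.084. Each array carries no test, because there is 1 per Cre system, and the error given below with a ratio is the one that the scanner software assigned to that single ratio. It covers spot noise and not the spread between mice. No spread was measured between arrays, so the order of pools across arrays is a description. In the Cd4Cre deficient pool, the summed signal of the NK cell list was also higher, 6.41 times. Klrd1, which CD8 T cells also carry, and Fcer1g led this sum, so it does not measure NK cells alone. The NK cell receptor Ncr1 read 1.39. The sums of neutrophil and monocyte, B cell and CD8 T cell markers were 11.1, 2.81 and 2.44 times those of wild type. The sum of Treg markers was 0.439 times. The part of such cells in the values of the 9 genes was not tested.

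**Figure D1:**
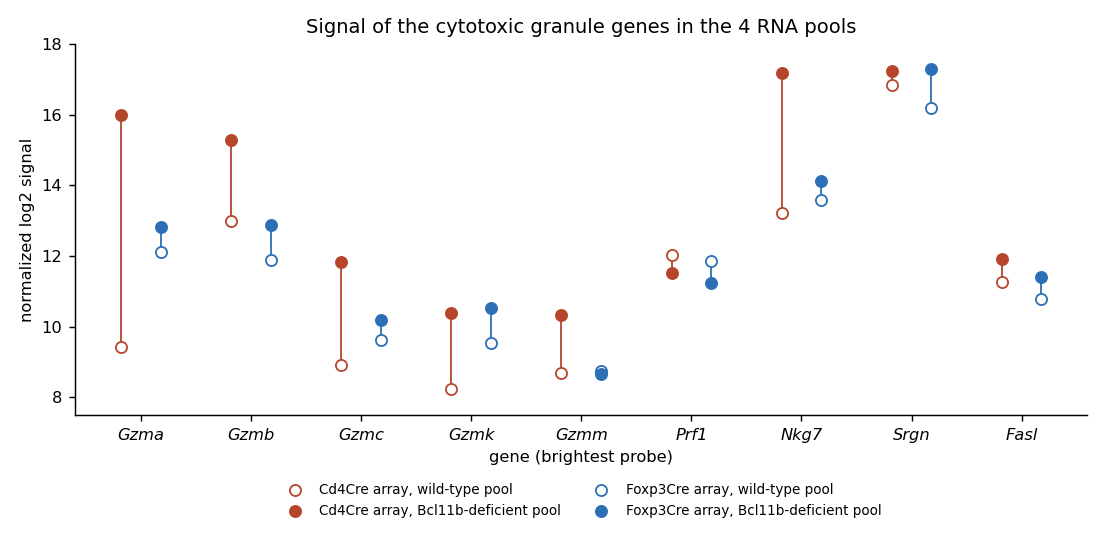
Normalized log2 signal (vertical axis) of the 9 genes (horizontal axis) in the 4 RNA pools; open circles are wild-type pools, filled circles Bcl11b-deficient pools, red the Cd4Cre array, blue the Foxp3Cre array, and a line joins the pools of 1 array. Gzma spans 9.43 to 16.00 on the Cd4Cre array and 12.10 to 12.81 on the Foxp3Cre array, and the filled circle lies below the open one for Prf1 on both arrays.

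Gzma encodes granzyme A, a tryptase-like granzyme abundant in NK cells. Its probe (chr13:113885986-113886045, mm9, minus strand) gave a mean intensity of 648 in the Cd4Cre wild-type pool and 68631 in the deficient pool, and 3736 and 10264 in the Foxp3Cre pools. The normalized log2 signals were 9.43 and 16.00 with Cd4Cre, and 12.10 and 12.81 with Foxp3Cre. The order was thus Cd4Cre wild type, Foxp3Cre wild type, Foxp3Cre deficient and Cd4Cre deficient, with both Foxp3Cre pools between the extremes. The Cd4Cre ratio was 6.57 (94.9-fold higher, software error 0.71), the 3rd highest of the 15873 detected genes. The Foxp3Cre ratio was 0.70 (1.63-fold higher, error 0.22). The ratios differed by 5.86 between the arrays, against a combined error of 0.74. Both genotypes differed between the arrays: the Foxp3Cre wild type was 2.67 above the Cd4Cre wild type, and the same difference between the deficient pools was -3.20.

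Gzmk encodes granzyme K, another tryptase-like granzyme, and lies near Gzma on chromosome 13 (probe chr13:113962100-113962159, minus strand). Its log2 signal was 8.22 in the wild-type pool and 10.38 in the deficient pool with Cd4Cre, and 9.54 and 10.54 with Foxp3Cre. The deficient pools were thus nearly level (0.16 apart), whereas the wild-type pools were 1.31 apart. The ratio was 2.15 with Cd4Cre (4.45-fold higher, error 0.36) and 0.998 with Foxp3Cre (1.997-fold, error 0.24), ranking 329th and 450th from the highest. The difference between the arrays was 1.16, against a combined error of 0.43.

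Gzmb encodes granzyme B, the aspartate-cleaving granzyme that activates caspases, and its probe lies at chr14:56877916-56877975 (minus strand). Its mean intensity was 5866 in the wild-type pool and 46416 in the deficient pool with Cd4Cre, and 3237 and 10759 with Foxp3Cre. The log2 signals were 12.98 and 15.30, and 11.88 and 12.88. Each deficient pool was above its own wild type, but the Cd4Cre wild-type pool was higher than the Foxp3Cre deficient pool, so the genotypes overlapped across the arrays. The ratios were 2.31 (4.96-fold higher, error 0.30) and 0.996 (1.99-fold higher, error 0.23), 1.32 apart with a combined error of 0.38.

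Gzmc, whose product granzyme C is a chymase-like granzyme of strongly activated cells, was read 26.8 kb from the Gzmb probe (chr14:56851095-56851154, minus strand). Its log2 signal was 8.91 and 11.84 in the Cd4Cre wild-type and deficient pools, and 9.64 and 10.18 in the Foxp3Cre pools. The Cd4Cre pools were the lowest and the highest of the 4, as they were for Gzma. The ratios were 2.93 (7.61-fold higher, error 0.38) and 0.54 (1.45-fold higher, error 0.22), 2.39 apart with a combined error of 0.44. The other granzymes of this chromosome 14 cluster, Gzmd, Gzme, Gzmf, Gzmg and Gzmn, were not well above background in any pool (0 of 5), so no ratio is given for them.

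**Figure D2:**
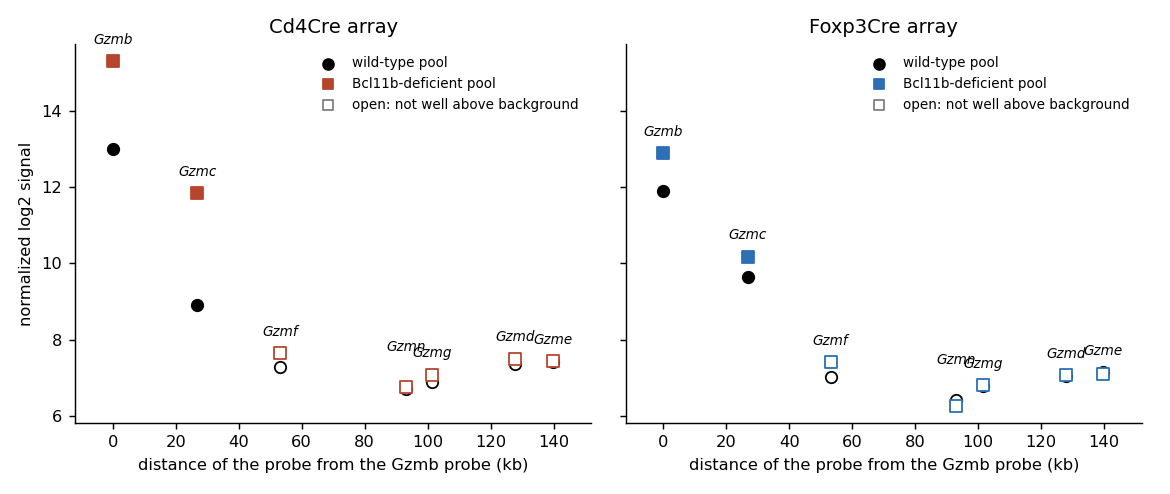
Normalized log2 signal (vertical axis) against the distance of each probe from the Gzmb probe in kb (horizontal axis) for the chromosome 14 granzymes, with the Cd4Cre array on the left and the Foxp3Cre array on the right; circles are wild-type pools, squares deficient pools, and open symbols were not well above background. Only Gzmb and Gzmc carry filled symbols, and the 5 genes from Gzmf outwards were not well above background in any pool.

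Gzmm encodes granzyme M, a methionine-preferring granzyme best known in NK cells, and lies on chromosome 10 (probe chr10:79157233-79157292, plus strand). Its log2 signal was 8.69 in the wild-type pool and 10.33 in the deficient pool with Cd4Cre, and 8.74 and 8.66 with Foxp3Cre. A single pool stood apart, the Cd4Cre deficient pool, and the other 3 lay close together. The ratio was 1.64 with Cd4Cre (3.13-fold higher, error 0.29), and -0.08 with Foxp3Cre, which was smaller than its error of 0.27.

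Perforin, the product of Prf1, forms the pores through which granzymes act, and it read lower in both deficient pools. Its probe (chr10:60766528-60766587, plus strand) gave mean intensities of 3755 and 3004 in the Cd4Cre wild-type and deficient pools, and 3215 and 3226 in the Foxp3Cre pools. The log2 signals were 12.04 and 11.51 with Cd4Cre, and 11.86 and 11.25 with Foxp3Cre. Both deficient pools were below both wild-type pools. The pools of Gzma, Gzmc, Gzmk, Nkg7, Srgn and Fasl were also apart by genotype, with the deficient pools higher. For Fasl the margin was narrow, at 11.40 in the lower deficient pool against 11.26 in the higher wild-type pool. This order of pools depends on the scaling of levels across arrays and has no replicate. The share of all genes whose pools were so placed was not counted. The Prf1 ratios were -0.53 (1.45-fold lower, error 0.21) and -0.61 (1.53-fold lower, error 0.21), only 0.08 apart with a combined error of 0.30. Prf1 thus ranked 12003rd of 15873 and 11450th of 15189 from the highest, below the median gene on both arrays.

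Nkg7 encodes a membrane protein of cytotoxic granules that takes part in their release. Its brighter probe (chr7:50693482-50693541, plus strand) gave mean intensities of 5978 and 173732 in the Cd4Cre wild-type and deficient pools, and 9633 and 28263 in the Foxp3Cre pools. The log2 signals were 13.22 and 17.17, and 13.59 and 14.12. Between the arrays (Foxp3Cre minus Cd4Cre) the wild-type pools differed by 0.37 and the deficient pools by -3.04, so the Cd4Cre deficient pool stood alone. The ratios were 3.94 (15.4-fold higher, error 0.43, 24th from the highest) and 0.53 (1.45-fold higher, error 0.21). The dimmer probe (chr7:50693148-50693207) gave 3.51 and 0.77, so both probes of the gene read the same direction with similar sizes.

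Serglycin, the product of Srgn, is the proteoglycan core on which granzymes are stored, and many blood cells besides cytotoxic lymphocytes make it. Its probe (chr10:61957219-61957278, minus strand) gave log2 signals of 16.85 and 17.24 in the Cd4Cre wild-type and deficient pools, and 16.18 and 17.29 in the Foxp3Cre pools. The deficient pools were level (0.04 apart) and the wild-type pools 0.67 apart. By the brightest probe of each gene, Srgn was the only gene of the set with a larger ratio after Foxp3Cre deletion. It read 1.11 there (2.16-fold higher, error 0.22, 297th of 15189), against 0.39 (1.31-fold higher, error 0.20) after Cd4Cre deletion. The dimmer probe of Fasl also read higher with Foxp3Cre, at 0.60 against 0.42. At this brightness the ratio depended on the normalization, in both directions. Centring on the median without an intensity-dependent correction gave 1.79 with Cd4Cre and 2.43 with Foxp3Cre. The scanner software's ratio gave 0.21 with Cd4Cre and 0.79 with Foxp3Cre, so Srgn did not pass 2-fold on the Foxp3Cre array there.

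Fas ligand, the product of Fasl, kills through the Fas receptor and does not need perforin. The probe that was printed in 10 spots (chr1:163711300-163711359, minus strand) gave log2 signals of 11.26 and 11.92 with Cd4Cre, and 10.80 and 11.40 with Foxp3Cre. Each deficient pool was above its own wild type by nearly the same step. The ratios were 0.66 (1.58-fold higher, error 0.21) and 0.61 (1.52-fold higher, error 0.22), 0.05 apart with a combined error of 0.30. The 10 spots ranged from 0.61 to 0.70 with a median of 0.66 on the Cd4Cre array (SD 0.029), and from 0.53 to 0.77 with a median of 0.60 on the Foxp3Cre array (SD 0.074). All 20 spot ratios were above 0, a measure of spotting precision and not of replicate mice. The other probe (chr1:163718079-163718138) read 0.42 and 0.60.

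**Figure D3:**
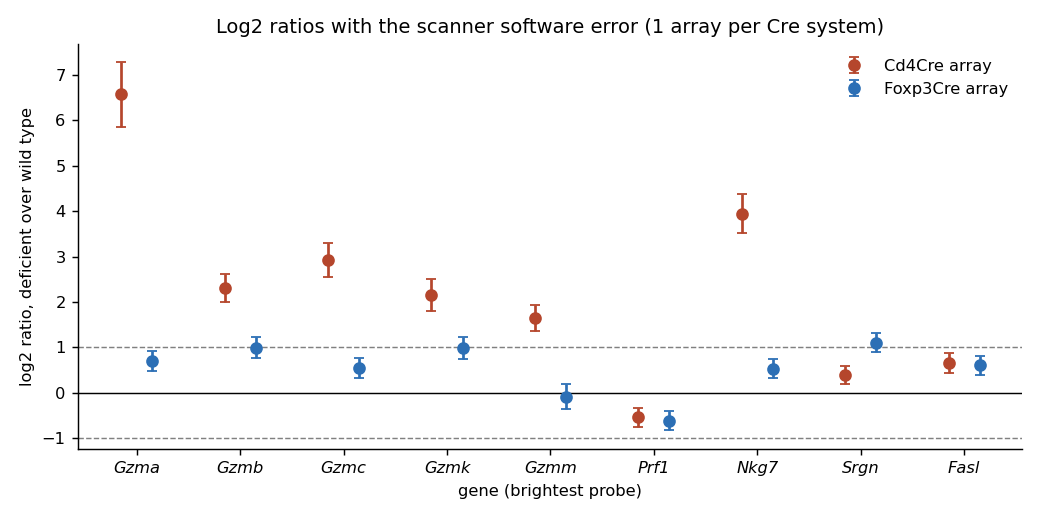
Log2 ratio of deficient over wild type (vertical axis) for the 9 genes (horizontal axis), red for the Cd4Cre array and blue for the Foxp3Cre array; points are single arrays, bars the error given by the scanner software, and dashed lines mark 2-fold. Gzma, Gzmb, Gzmc, Gzmk, Gzmm and Nkg7 lie above the upper dashed line on the Cd4Cre array, whereas Prf1 at -0.53 and -0.61 is the only gene below 0 on both arrays.

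Set against all genes, Prf1 was the lowest of the 9 genes on both arrays, with 24.4% of detected genes at or below it with Cd4Cre and 24.6% with Foxp3Cre. Gzma stood highest with Cd4Cre (99.99%) and Srgn with Foxp3Cre (98.1%). With Cd4Cre, 8 of 9 were above 0, as were 47.2% of the detected genes, and with Foxp3Cre 7 of 9, as were 45.4%. No gene of the set was at least 2-fold higher on both arrays (0 of 9), a pattern shown by 193 of 14375 genes (1.34%). This count rests on the threshold and the setting, since Gzmb and Gzmk passed on both arrays with an offset of 10, the software's ratio or the deposited table, and 5 genes passed with median centring.

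**Figure D4:**
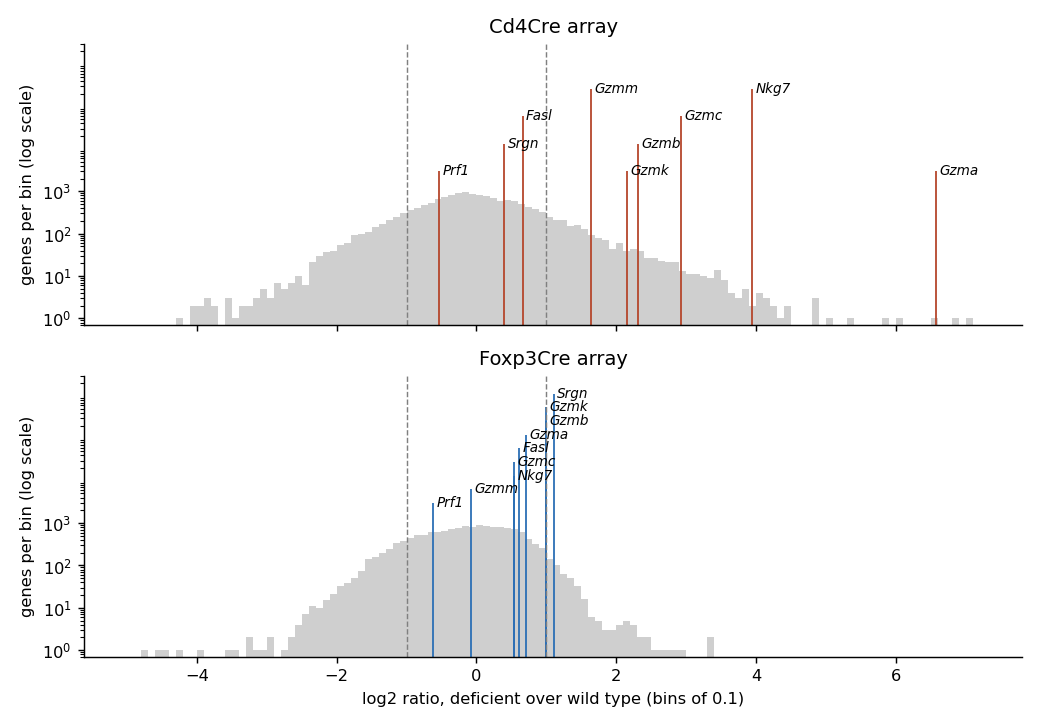
Histograms of the log2 ratio of deficient over wild type (horizontal axis, bins of 0.1) for the detected genes, with the number of genes on a log scale (vertical axis), for the Cd4Cre array above and the Foxp3Cre array below; coloured lines mark the 9 genes, their heights serve the labels only, and dashed lines mark 2-fold. Gzma at 6.57 and Nkg7 at 3.94 lie in the sparse right end of the upper histogram, and all 9 genes lie between -0.61 and 1.11 in the lower one.

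The only test that the design allows takes the mean of both arrays against 0 (limma with 1 residual degree of freedom, Benjamini-Hochberg adjustment over 14375 genes), so that the difference between the Cre systems counts as spread. It called none of the 9 genes, and none of all genes either (0%, with a lowest adjusted p of 0.0955). At an unadjusted p under 0.05 it listed 5 of the 9 genes, namely Gzma, Gzmb, Gzmc, Gzmk and Nkg7, beside 3254 genes in all (22.6%). The mean ratios were 1.65 for Gzmb (SE 0.40, adjusted p = 0.1005) and 1.58 for Gzmk (SE 0.38, adjusted p = 0.1005), each higher on 2 of 2 arrays. Gzma had a larger mean, 3.64, with a larger SE of 1.08 and an adjusted p of 0.119. Over the alternative settings the adjusted p ranged from 0.0480 to 0.247 for Gzmb, from 0.0577 to 0.238 for Gzmk and from 0.0650 to 0.431 for Gzma. For Gzmc and Nkg7 the adjusted p was 0.126 and 0.125, for Srgn 0.248, for Fasl 0.287, and for Gzmm and Prf1 0.329 each.

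The genes for proteins that mature and fill the granule were higher in part in the Cd4Cre system. All 10 genes of granule proteases and content were detected, and 4 were 2-fold or more higher with Cd4Cre (11.4% of all genes) and 0 with Foxp3Cre (2.94%), with medians of 0.35 and 0.16. The cysteine proteases Ctsh and Ctsw, cathepsin W being typical of cytotoxic lymphocytes, read 1.80 and 1.47 with Cd4Cre, and 0.08 and -0.36 with Foxp3Cre. The tetraspanin Cd63 read 1.20 and 0.24, and the lysosomal protease Ctsl 1.02 and 0.41.

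The genes that move and fuse granules held ratios in both directions. Of its 16 genes, all detected, 2 passed 2-fold upwards (11.4% of all genes) and 2 downwards (10.6%) with Cd4Cre, and 0 upwards (2.94%) and 3 downwards (11.5%) with Foxp3Cre, with medians of 0.03 and 0.12. Sytl3, a synaptotagmin-like partner of Rab27, read 3.61 with Cd4Cre and -0.20 with Foxp3Cre. Rab27a, the GTPase that docks cytotoxic granules, read -2.02 and 0.22, although its probes disagreed and spanned -2.02 to 0.06 on the Cd4Cre array. The fusion factor Stxbp2 (Munc18-2) read -0.52 and -1.39, and the adaptor subunit Ap3b1, which serves granule movement, -1.30 and -0.62.

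Cytotoxic cells protect themselves from their own granzymes with intracellular serpins. Of 5 such genes, 4 were detected and all 4 were above 0 on both arrays, with medians of 0.74 and 0.41. With Cd4Cre 2 were at least 2-fold higher (11.4% of all genes), and with Foxp3Cre 0 (2.94%). Serpinb6b read 1.76 and 0.94, and Serpinb9, the inhibitor of granzyme B, 1.18 and 0.49.

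The list of the Fas death receptor pathway was near the background of all genes. It also held Tnfsf10, a separate death ligand that is not downstream of Fas ligand, at 0.96 and 0.81. Of 9 detected genes, 0 passed 2-fold upwards on either array (11.4% and 2.94% of all genes) and 1 passed it downwards with Cd4Cre (10.6%), the initiator caspase Casp8 (-1.49, and 0.04 with Foxp3Cre). The medians were -0.17 and 0.26.

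The transcription factors known to drive cytotoxic genes held ratios in both directions. Of the 10 on the list, 9 had a probe, and all 9 were detected. With Cd4Cre 3 were at least 2-fold higher (11.4% of all genes) and 1 lower (10.6%), and with Foxp3Cre 1 was higher (2.94%) and 1 lower (11.5%), with medians of -0.04 and -0.42. Tbx21 (T-bet) read 2.45 with Cd4Cre and -0.57 with Foxp3Cre, and the related T-box factor Eomes 1.33 and -0.42. Id2, which supports effector lymphocytes, was higher on both arrays at 1.87 and 1.27, although its probes spanned 0.41 to 1.27 with Foxp3Cre. Stat5b, a mediator of interleukin 2 signals, was lower on both at -1.73 and -1.19. Its probes spanned -2.49 to -0.47 with Cd4Cre and -1.19 to -0.72 with Foxp3Cre.

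**Figure D5:**
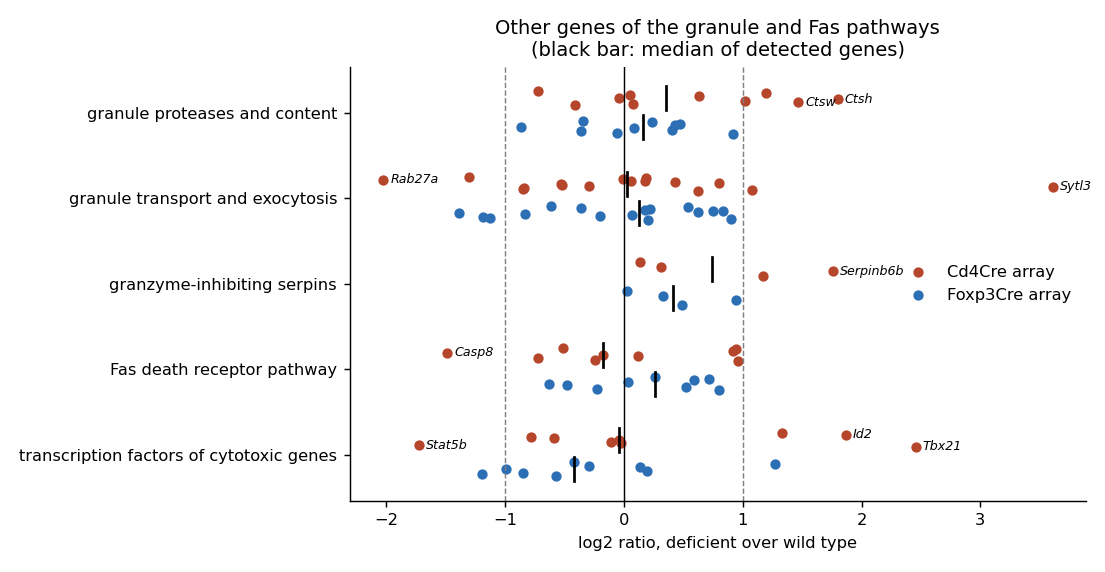
Log2 ratio of deficient over wild type (horizontal axis) of the detected genes of 5 lists (vertical axis), red for the Cd4Cre array and blue for the Foxp3Cre array; each point is 1 gene, black bars are list medians and dashed lines mark 2-fold. The Cd4Cre points reach from -2.02 (Rab27a) to 3.61 (Sytl3), and the Foxp3Cre points from -1.39 to 1.27.

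Markers of other cells that make granzymes or serglycin were higher in sum in the Cd4Cre deficient pool, and less uniformly so with Foxp3Cre. For NK cells, 7 of 9 markers were detected, Klra4 and Itga2 being not well above background in any pool. The summed signal of the list went from 27213 in wild type to 174331 in the deficient pool with Cd4Cre (6.41 times), and from 41401 to 51221 with Foxp3Cre (1.24 times). Klrd1 and Fcer1g led the sum in the Cd4Cre deficient pool, with log2 signals of 16.45 and 16.22, against 9.07 for Ncr1. The activating receptor Ncr1, which defines NK cells, read 1.39 and 1.005, and Klrb1c 2.47 and 0.79. Klrd1, which CD8 T cells also carry, read 3.78 and 0.15, so the summed signal is not a measure of NK cells alone. Eomes, also on this list, read 1.33 and -0.42. All 7 detected markers were above 0 with Cd4Cre, and with Foxp3Cre 6 were above 0 and 1 below. The summed signal of all 9 genes of the set went from 144413 to 421432 with Cd4Cre (2.92 times) and from 102251 to 200819 with Foxp3Cre (1.96 times). Srgn was the brightest of the 9 genes in every pool, with log2 signals of 16.18 and 17.29 on the Foxp3Cre array. These sums therefore do not measure the granzymes alone.

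The CD8 T cell markers Cd8a and Cd8b1 were well above background in all pools (2 of 2), and their sum went from 25891 to 63074 with Cd4Cre (2.44 times) and from 56026 to 56780 with Foxp3Cre (1.01 times). Cd8a read 2.56 and 0.08. Neutrophil and monocyte markers, of cells that store much serglycin, were detected in 8 of 8 cases, and their sum went from 43195 to 480843 (11.1 times) and from 147069 to 263854 (1.79 times). With Cd4Cre 6 of them were at least 2-fold higher (11.4% of all genes), led by S100a9 (7.02) and S100a8 (6.86). The other 2, the monocyte receptors Csf1r and Cd14, were at least 2-fold lower (10.6%) at -1.50 and -1.05. With Foxp3Cre 5 were at least 2-fold higher (2.94%), and 1, Csf1r, was at least 2-fold lower (11.5%) at -1.20. The sum of 4 B cell markers went from 22469 to 63118 (2.81 times) and from 69823 to 69766 (0.999 times).

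Mast cell and basophil markers were dim, with sums from 2123 to 4501 (2.12 times) with Cd4Cre and from 1331 to 4173 (3.13 times) with Foxp3Cre, and the receptor chain Fcer1a was not well above background in any pool. The sum of the platelet markers went from 545 to 795 and from 667 to 1761, with Ppbp and Gp9 not well above background in any pool. The sum of the Treg markers went from 162595 to 71433 with Cd4Cre (0.439 times) and from 70570 to 81819 with Foxp3Cre (1.16 times). The part of other cells in the granzyme, Nkg7 and Srgn values was not tested.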

How the data were processed

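Per the labels, amplified RNA was dye-labelled with a Kreatech ULS kit. Agilent Feature Extraction read the spots, in version 10.5.1.1 (Cd4Cre array) and 10.7.3.1 (Foxp3Cre array) per the file headers and 10.5.1 per the submitters' processing notes. The authors deposited spot and background intensity for both channels, flags, and the software's log10 ratio (Cy5 over Cy3) with an error. The deposited value table equalled that ratio (largest difference 0).

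Here, intensities were background-corrected (normexp, offset 50), normalized by loess within arrays in limma 3.58.1 (R 4.3.3, controls at weight 0) and expressed as log2 ratios. Spots marked as outliers (137 and 155) were dropped, and repeated spots averaged. Per-channel log2 signals were scaled across arrays by Aquantile, on which levels compared between arrays depend. The brightest probe stood for a gene, which was detected on an array if either channel was well above background. RefSeq names came by accession for 24844 probes, by symbol for 6045 and by synonym for 1810, while 8475 kept the file's name. Probe coordinates are the files' (mm9) and promoters are RefSeq's. The model was tested on simulated data.

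Named are all 9 genes of the set and, of each list, those changed at least 2-fold on either array, at most 4. Bcl11b, Treg markers and defining markers of other cells are named as checks. Genes, lists and rules were chosen with earlier results of these data known. The alternatives were raw signal without background subtraction, an offset of 10, the software's ratio, the deposited table, median centring, mean over probes, no and stricter dim-probe filters, kept outliers and an intensity trend.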

Additional observations from a re-analysis of the deposited data

Results flagged for a closer look

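Several genes that changed at least 2-fold with Cd4Cre had the opposite sign with Foxp3Cre. Each array is 1 sample of its Cre system, and in no case was the difference tested. Of the 9 granule genes this was Gzmm alone, at 1.64 with Cd4Cre and -0.0796 with Foxp3Cre, the latter within its software error. Among the granule content and transport genes, Ctsw read 1.47 and -0.36, Sytl3 3.61 and -0.20, and Rab27a -2.02 and 0.22. The Foxp3Cre value of Sytl3 was within its software error of 0.27, and the probes of Rab27a spanned -2.02 to 0.06 with Cd4Cre. Casp8 of the Fas pathway read -1.49 and 0.0376, the latter within its software error of 0.20. The T-box factors Tbx21 and Eomes read 2.45 and -0.57, and 1.33 and -0.42.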

How the results depend on the processing

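Ratios of the 9 genes kept their sign under all 9 alternative settings on both arrays, and no list gene of at least 2-fold changed sign. Several settings could not alter these 9 genes. Their spots held no outlier and were well above background, so kept outliers and the dim-probe filters left their ratios as they were. The deposited table repeated the software's ratio, and the mean over probes could alter only Nkg7 and Fasl. Of the single-gene ratios and all-gene counts recomputed, 1879 stayed within the software error, or for counts within 1.5 times the reported count, and 243 moved further. With Cd4Cre the count of genes at least 2-fold higher was 6, and 7 with median centring in place of loess. The median of the set moved from 2.15 to 1.85 without background subtraction. With Foxp3Cre the count was 1, but 3 with an offset of 10, 2 with the scanner software's ratio or the deposited table, and 5 with median centring, which also moved the median to 1.07. Under median centring the limma fit called 2 of the 9 genes (Srgn, adjusted p = 0.0388, and Gzmb, adjusted p = 0.0480; their ranges over all settings reach 0.485 and 0.247) and 311 genes in all. With signal required in both channels it called 39 genes and none of the 9. Median centring shifted the median of all genes from -0.050 to 0.072 with Cd4Cre and from -0.084 to 0.165 with Foxp3Cre. The counts of genes at least 2-fold higher and lower turned from 1809 and 1682 to 2858 and 1319 with Cd4Cre, and from 446 and 1749 to 2044 and 1022 with Foxp3Cre. With the software's ratio they were 2393 and 2964, and 1155 and 2021. The cause was not tested. No paired analysis was possible because each Cre system has 1 array. The number of arrays limits the precision of every value, and no dye swap was made.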

Other observations

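The protease genes beyond the granzymes of chromosome 14 were read as well, in a window of 300 kb around the Gzmb probe that was chosen after the values were seen. Ctsg, the neutrophil protease cathepsin G, lay 159.1 kb from the Gzmb probe, past Gzmd and Gzme, and was higher on both arrays at 3.45 and 2.41. Its log2 signal was 8.05 and 11.49 in the Cd4Cre wild-type and deficient pools, and 9.22 and 11.63 in the Foxp3Cre pools. Both deficient pools were thus above both wild types, and the share of all genes so placed was not counted. The mast cell protease Mcpt4, at 199.3 kb, read -0.28 with Cd4Cre and was at least 5.08-fold higher with Foxp3Cre, where the wild-type channel was not well above background. The basophil protease Mcpt8, at 175.6 kb, was not well above background on the Cd4Cre array and at least 1.69-fold higher in the Foxp3Cre deficient pool. Such a bound sets the deficient signal against the dim signal or the detection floor of its channel, whichever was higher. The mast cell protease Cma2, at 285.3 kb, was at least 1.17-fold lower with Cd4Cre and at least 1.52-fold higher with Foxp3Cre. Mcpt1, Mcpt2 and Mcpt9 were not well above background in any pool. On the other side of Gzmb, the centromere protein gene Cenpj read -0.43 and -0.06.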
